A study of Homo sapiens with 6 samples.

Results

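The potassium channel genes were described in 6 libraries of total RNA from a human neuroblastoma cell line, 3 titled EtOH (the ethanol vehicle) and 3 titled Tet (tetracycline, given for 5 days per the labels). The members were all protein-coding genes whose symbol begins with KCN, with 1 gene of the family left out. They numbered 95 of the 60651 genes counted. The rule used names only and no measured value. By class they were 39 pore-forming subunits of voltage-gated channels, 13 auxiliary or regulatory subunits of those channels, 16 inward rectifiers (KCNJ), 15 two-pore channels (KCNK), and 12 calcium-activated or related Slo family genes (KCNM, KCNN, KCNT and KCNU).

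The labels did not name a single cell model. Titles gave IMR575, a *MYCN*-amplified line, and a tag named the EtOH libraries Control and the Tet libraries Induction of a knockdown. The growth text instead described single clones of SK-N-SH cells with a tetracycline repressor (pcDNA6/TR) and an inducible *MYCN* construct, kept under G418 and blasticidin. The study describes an SK-N-AS model with inducible *MYCN* and an IMR-5/75 line with inducible shRNA against *MYCN*. Libraries are therefore called by their label. The study's methods describe its cell culture experiments as independent biological replicates unless stated otherwise. The labels do not tie these libraries to separate cultures, so p-values measure the spread between the libraries as given.

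The RNA of the targeted gene did not separate the labels. *MYCN* stood at 158, 256 and 156 CPM (a gene's count relative to the TMM-scaled library total) in the libraries labeled EtOH and at 197, 200 and 145 CPM in those labeled Tet. Its log2 fold change, Tet against EtOH, was -0.07 (SE 0.23, adjusted p = 0.956 by the quasi-likelihood test of edgeR), and the groups overlapped. Total counts ranged from 27933378 to 40498065 per library and did not separate the groups (exact two-sided permutation test, p = 0.4; 3 against 3 cannot give less than 0.1). Along the first principal component, which held 44.7% of the variance, EtOH replicate 2 stood apart at 84.2 against -55.0 and -37.0 for the other EtOH libraries. The libraries labeled Tet stood at -1.81, 47.3 and -37.7, so that replicate 2 was the highest under both labels. EtOH replicate 2 was the lowest library for 19 of 52 tested potassium channel genes (36.5%) and for 28.2% of all genes tested. It was also the highest library for 12 of the 52 (23.1%) and for 24.8% of all genes tested. Of 10 markers of noradrenergic neuroblastoma, 7 could be tested and 5 had an unadjusted p under 0.05 in edgeR, higher in the libraries labeled Tet (as were 5.83% of all genes tested), although 0 passed adjustment (3 in DESeq2 and 0 in limma-voom). Their summed level ran from 537 to 584 TPM under the EtOH label and from 623 to 699 TPM under the Tet label, with *TH*, *DBH* and *STMN2* at or near 0. The part of this shift in the channel values was not tested. The 7 mesenchymal markers summed to between 182 and 335 TPM under EtOH and between 183 and 311 TPM under Tet. At an unadjusted p under 0.05 in edgeR, 1 of them was higher and 1 lower, against 5.83% and 4.94% of all genes tested. These were *SNAI2*, with a log2 fold change of 1.84 (SE 0.70), and *PRRX1*, with -1.02 (SE 0.34), and 0 passed adjustment. Markers of Schwann and glial cells, fibroblasts, blood and endothelium summed to at most 4.63 TPM per list in any library. The fibroblast sums did not overlap, at 3.88 to 4.63 TPM under EtOH and 2.65 to 3.33 TPM under Tet, and their part in the channel values was not tested.

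Potassium channels let potassium ions leave or enter a cell along their gradient and so set the resting membrane potential and end each action potential. Voltage-gated channels are assembled from 4 pore subunits and open on depolarization, inward rectifiers pass current best near rest, two-pore channels give a background leak, and calcium-activated channels couple the potential to calcium inside the cell. Neuroblastoma arises from precursors of the sympathetic nervous system, whose neurons use channels of several of these classes. In a bulk library, fewer cells that use a gene and less of its RNA per cell cannot be told apart.

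The potassium channel genes with the largest differences belonged to different classes and pointed in both directions, but those that passed the test were higher under the Tet label. *KCNJ6*, which encodes a G protein-gated inward rectifier, rose 5.02-fold, and *KCND2*, which encodes a pore subunit of fast-inactivating Kv4 channels, rose 2.78-fold. These were the 2 members of 52 tested that passed an adjusted p of 0.05 in edgeR, both higher under the Tet label and none lower (in DESeq2 3 were lower, and in limma-voom 0). Over all 22443 genes tested, 0.236% passed, 0.147% higher and 0.0891% lower. At an unadjusted p under 0.05, 13 of 52 members (25.0%) stood out, 5 higher and 8 lower, against 10.8% of all genes tested (5.83% higher and 4.94% lower). The same 13 members were those whose groups did not overlap (25.0%, against 17.5% of all genes tested, 9.2% higher and 8.28% lower).

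The windows upstream of the called genes are shown first, together with that of *KCNC4*, which had the most negative log2 fold change among members. Each is the 250 bases before the RefSeq start on GRCh38.p14, written 5′ to 3′ on the gene's strand. Capitals mark matches, on either strand, to CACGTG, the E-box bound by MYC family proteins, and to GGGCGG, the GC box.
KCNJ6, chr21:37916458-37916707, minus strand: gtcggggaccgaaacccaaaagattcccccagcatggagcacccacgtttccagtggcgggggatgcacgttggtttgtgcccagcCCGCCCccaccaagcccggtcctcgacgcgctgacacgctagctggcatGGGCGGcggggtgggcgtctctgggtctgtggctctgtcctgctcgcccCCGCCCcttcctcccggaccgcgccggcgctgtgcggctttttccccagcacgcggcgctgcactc
KCND2, chr7:120272925-120273174, plus strand: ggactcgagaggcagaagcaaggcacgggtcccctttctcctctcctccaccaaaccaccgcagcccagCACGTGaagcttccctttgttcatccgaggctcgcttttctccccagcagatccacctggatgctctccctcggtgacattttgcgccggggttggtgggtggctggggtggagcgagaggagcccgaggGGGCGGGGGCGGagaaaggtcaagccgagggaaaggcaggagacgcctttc
KCNC4, chr1:110210064-110210313, plus strand: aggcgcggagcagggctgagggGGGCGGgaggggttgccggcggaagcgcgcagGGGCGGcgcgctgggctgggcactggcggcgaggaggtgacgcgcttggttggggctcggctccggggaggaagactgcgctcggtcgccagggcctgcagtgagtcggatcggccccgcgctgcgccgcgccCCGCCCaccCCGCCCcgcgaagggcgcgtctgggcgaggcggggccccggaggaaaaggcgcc
The *KCNJ6* start used by RefSeq lies inside the longer gene that the count files use (chr21:37607373-38121345, minus strand). A RefSeq window could be matched to 71 of the 95 members. CACGTG, which reads the same on both strands, was present in 3 of these 71 (4.23%) and in 6.49% of all 27305 windows. Among the 37 matched members that were tested, 1 held it, namely *KCND2*, at base -181 from the start. GGGCGG on either strand was present in 54.9% of members and 42.3% of all windows. It was found in 67.6% of tested and 41.2% of untested members. TATAAA on either strand was in 8.45% of members and 11.1% of all windows. These are matches of letters and no binding was measured.

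**Figure D1:**
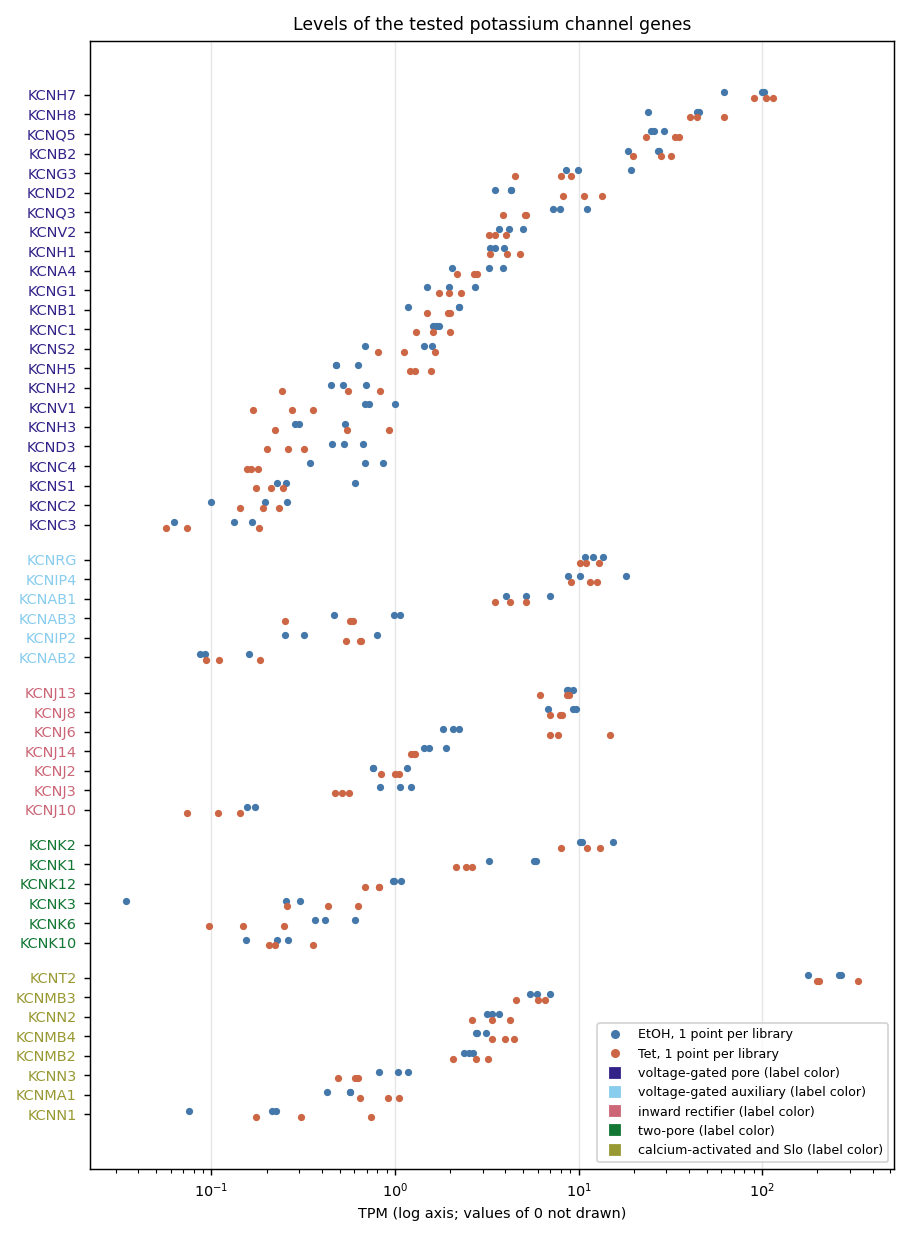
Level of 50 of the 52 tested potassium channel genes in TPM (counts per base of exon, scaled to a common total) on a log axis, with 1 point per library, EtOH in blue and Tet in orange, and genes grouped by class. KCNT2 lies between 177 and 333 TPM, above every other member in all 6 libraries.

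Levels were very uneven. Between genes they are compared in TPM, which divides by exon length. *KCNT2*, a sodium-activated channel of the Slo family, had a mean of 241 TPM over the 6 libraries and held 42.2% of the summed TPM of all members. It was followed by *KCNH7*, an Erg-type channel, with 95.8 TPM (16.7%), *KCNH8*, an Elk-type channel, with 43.4 TPM, *KCNQ5*, a Kv7 channel, with 28.7 TPM, and *KCNB2*, a Kv2 delayed rectifier, with 25.4 TPM. The plot of levels by library shows *KCNT2* clear of the members below it, and *KCNH7* lay above *KCNH8* in every library, whereas the ranges of *KCNQ5* and *KCNB2* overlapped. The 15 highest genes together made up 91.2% of the sum. By class, voltage-gated pore genes held 41.9%, Slo family and calcium-activated genes 45.2%, auxiliary genes 5.30%, inward rectifiers 4.59% and two-pore genes 2.99%.

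At the other end, 12 members had no count in any library, where 3 counts would be between 0.0741 and 0.107 CPM. They included *KCNA1*, *KCNA3* and *KCNA5*, which encode Kv1 subunits, *KCNJ5*, which encodes a partner of *KCNJ6*, and *KCNN4*, the intermediate-conductance calcium-activated channel. In all 43 members were too low to be tested, 27 of them with fewer than 10 counts over all libraries, and their highest value in any library was 1.11 CPM. By class, 25 of 39 voltage-gated pore genes, 6 of 13 auxiliary genes, 7 of 16 inward rectifiers, 6 of 15 two-pore genes and 8 of 12 calcium-activated and Slo genes could be tested.

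The summed level of the family differed by less than the spread between libraries. It was 554 ± 75.0 TPM under the EtOH label and 590 ± 103 TPM under the Tet label (SD, n = 3 each). The dominant *KCNT2* stood at 264, 177 and 271 TPM under EtOH and at 333, 198 and 205 TPM under Tet, so that the groups overlapped. Its log2 fold change was 0.10 (SE 0.25). *KCNH7* stood at 102, 62.3 and 101 TPM against 114, 90.9 and 105 TPM, with a log2 fold change of 0.28 (SE 0.23). In both genes EtOH replicate 2 was the lowest library.

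**Figure D2:**
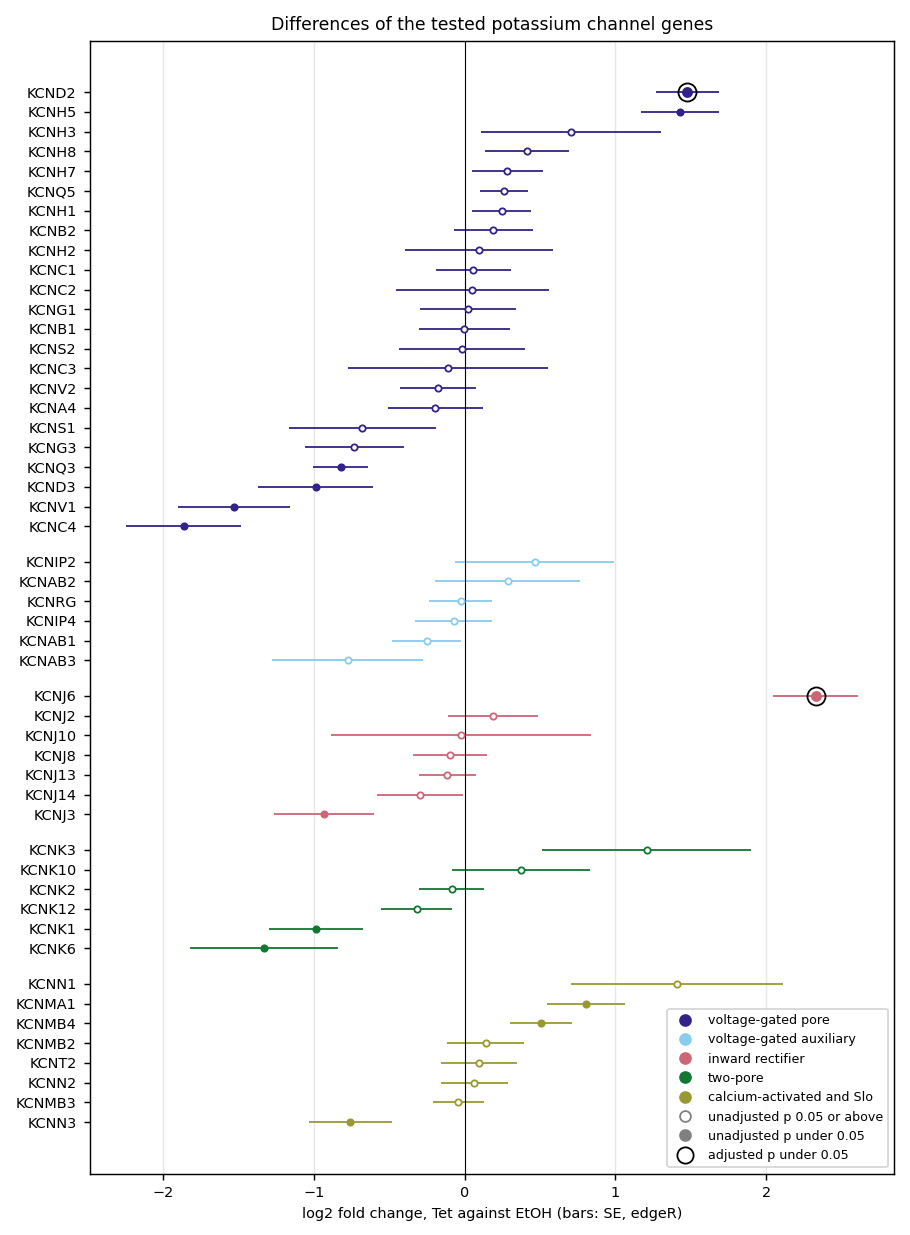
Log2 fold change, Tet against EtOH, of 50 of the 52 tested potassium channel genes with bars of 1 SE from edgeR, by class, filled where the unadjusted p is under 0.05 and ringed where the adjusted p is under 0.05. The ringed genes are KCNJ6 at 2.33 and KCND2 at 1.48, and the lowest value is KCNC4 at -1.86.

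Of the 52 tested members 25 had a positive and 27 a negative log2 fold change, with a median of -0.01 against -0.006 over all genes tested. The class medians were 0.02 for 25 voltage-gated pore genes, -0.05 for 6 auxiliary genes, -0.10 for 7 inward rectifiers, -0.20 for 6 two-pore genes and 0.12 for 8 calcium-activated and Slo genes. A class score per library, the median over tested members of log2 CPM minus the gene mean, differed between the labels by 0.07, 0.07, -0.10, -0.20 and 0.13 in the same order, Tet minus EtOH. Its spread between libraries of a label (SD) was 0.31, 0.12, 0.12, 0.14 and 0.12. The differences of the two-pore and the calcium-activated and Slo scores were thus larger than that spread and the other 3 were not. Both of these scores still overlapped between the labels. The two-pore score was 0.041 in Tet replicate 3 and -0.077 in EtOH replicate 2. The calcium-activated and Slo score was -0.099 in Tet replicate 3 and 0.025 in EtOH replicate 1. The auxiliary score and median differed in sign. Without EtOH replicate 2 the auxiliary median turned to 0.081.

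Among the inward rectifiers, *KCNJ6* was the gene with the largest rise of the family. It stood at 15.3, 15.2 and 13.4 CPM in the libraries labeled EtOH and at 54.8, 108 and 57.0 CPM in those labeled Tet. Every library labeled Tet lay far above every library labeled EtOH, with Tet replicate 2 the highest. The log2 fold change was 2.33 (SE 0.28, adjusted p = 0.0292 in edgeR). The adjusted p was 0.00922 without EtOH replicate 2, and above the threshold without each other library, at 0.133 without EtOH replicate 1, 0.206 without EtOH replicate 3, 0.188 without Tet replicate 1, 0.0572 without Tet replicate 2 and 0.106 without Tet replicate 3. Its direction was kept in each of these fits, with a log2 fold change between 1.94 and 2.50.

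*KCNJ6* encodes GIRK2, a channel subunit opened by the beta and gamma subunits of inhibitory G proteins. Its usual partner *KCNJ3* (GIRK1) had values in the opposite direction, at 2.23, 1.77 and 1.49 CPM under EtOH and 0.815, 1.02 and 1.03 CPM under Tet. The groups did not overlap, with a log2 fold change of -0.93 (SE 0.33), but the adjusted p was 0.354 in edgeR. The other GIRK genes were *KCNJ5*, with no count in any library, and *KCNJ9*, with 16 counts in all. The nearest member to *KCNJ6* on chromosome 21, *KCNJ15* at a distance of 34.2 kb, had 4 counts over all libraries and was not tested.

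As a description, chosen after these values were seen, *KCNJ6* held 65.8% ± 3.60 of the TPM of the GIRK genes under the EtOH label and 94.0% ± 2.30 under the Tet label (SD, n = 3 each). *KCNJ3* held 33.2% ± 3.13 and 5.37% ± 1.57. The highest *KCNJ3* share in a library labeled Tet was 6.75% and the lowest in a library labeled EtOH was 30.8%.

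The other tested inward rectifiers did not pass the test. *KCNJ13* and *KCNJ8*, which encode Kir7 and the pore of an ATP-sensitive channel, were the highest at 8.40 and 8.13 TPM. Their log2 fold changes were -0.11 (SE 0.19) and -0.10 (SE 0.25). *KCNJ2*, the classical strong rectifier, had 0.19 (SE 0.30) and *KCNJ14* had -0.29 (SE 0.29). Of the exon bases of *KCNJ13*, 29.7% lie within other genes, among them *GIGYF2*, and 30.6% of those of *KCNJ14* do, so their counts are uncertain. *KCNJ12* and *KCNJ18* are near-identical copies and reads that fit both are not counted, which leaves their low values uncertain.

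**Figure D3:**
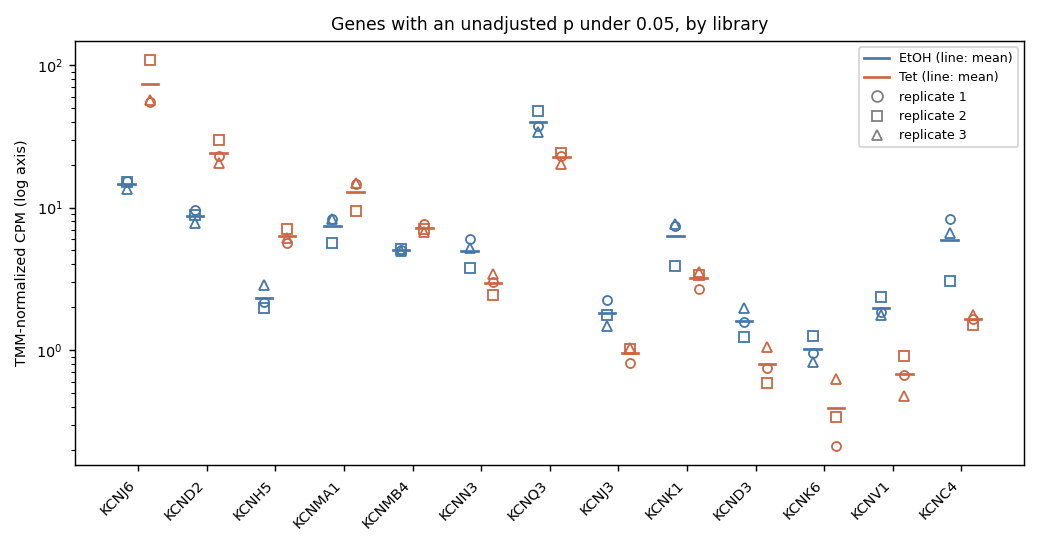
TMM-normalized CPM on a log axis in each library for the 13 potassium channel genes with an unadjusted p under 0.05, EtOH in blue and Tet in orange, symbols for the replicate number and lines for the group mean. In none of these genes do the groups overlap, and KCNJ6 runs from 13.4 to 15.3 CPM under EtOH and from 54.8 to 108 CPM under Tet.

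Among the voltage-gated pore genes, *KCND2* was the member that passed. It stood at 9.63, 8.80 and 7.77 CPM under EtOH and at 22.9, 29.7 and 20.4 CPM under Tet. The lowest library labeled Tet lay above 2 times the highest labeled EtOH. The log2 fold change was 1.48 (SE 0.21, adjusted p = 0.0413 in edgeR), and the gene lies at chr7:120273175-120750337 on the plus strand. The call was lost under the size factors of DESeq2 (adjusted p = 0.0505 in edgeR) and without each library other than EtOH replicate 2. These values were 0.160 without EtOH replicate 1, 0.289 without EtOH replicate 3, 0.275 without Tet replicate 1, 0.189 without Tet replicate 2 and 0.131 without Tet replicate 3, and 0.0132 without EtOH replicate 2. The log2 fold change stayed between 1.31 and 1.59.

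*KCND2* carries the transient A-type current of neuronal dendrites, which slows the approach to threshold. *KCND3*, of the same Kv4 family, was low and pointed the other way, at 1.56, 1.23 and 1.98 CPM under EtOH and 0.744, 0.592 and 1.06 CPM under Tet, a log2 fold change of -0.99 (SE 0.38, adjusted p = 0.400 in edgeR). *KCND3* is a member but was not picked by the rule on which members to discuss, and 12.9% of its exon bases lie within *DDX20*. *KCND2* made up 85.1% ± 2.82 of Kv4 TPM under EtOH and 96.4% ± 1.80 under Tet, and *KCND3* 11.8% ± 3.57 and 2.51% ± 1.12 (SD, n = 3 each). Kv4 channels are modulated by KChIP proteins and by *DPP6* or *DPP10*. *KCNIP4*, the highest KChIP gene at 11.7 TPM, had a log2 fold change of -0.07 (SE 0.26), with 45.1% of its exon bases within other genes. *KCNIP2* had 0.46 (SE 0.53), while *KCNIP1* and *KCNIP3* had 6 and 4 counts in all. *DPP6* stood at 12.2 ± 4.45 CPM under EtOH and 17.4 ± 5.98 CPM under Tet (SD, n = 3 each), with a log2 fold change of 0.51 (SE 0.34), and *DPP10* had no count.

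*KCNH5*, an ether-à-go-go (EAG) channel, had the next smallest p of the family. Its values were 2.18, 1.98 and 2.84 CPM under EtOH and 5.64, 7.08 and 6.12 CPM under Tet. The groups were well apart, with a log2 fold change of 1.43 (SE 0.26), although the adjusted p was 0.0812 in edgeR. It passed with an adjusted p of 0.0308 without EtOH replicate 2 and did not in any other fit that left out a library. The share of *KCNH5* in the TPM of the EAG pair went from 12.9% ± 2.76 under EtOH to 25.1% ± 1.47 under Tet, beside *KCNH1*, of whose exon bases 53.1% lie within other annotated genes.

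*KCNC4*, which encodes a fast-inactivating Kv3 channel, had the most negative estimate. It stood at 8.29, 3.03 and 6.58 CPM under EtOH and at 1.67, 1.49 and 1.76 CPM under Tet. The libraries labeled Tet were close together and all below EtOH replicate 2, the lowest of the EtOH libraries. The log2 fold change was -1.86 (SE 0.38, adjusted p = 0.110 in edgeR). Without EtOH replicate 2 it was -2.17 with an adjusted p of 0.00654. The Kv1 genes *KCNA10*, *KCNA2* and *KCNA3* lie 234, 237 and 389 kb from *KCNC4* on chromosome 1 and had 1, 2 and 0 counts in all.

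The Kv7 genes carry the M current, which restrains repeated firing. *KCNQ3* stood at 37.6, 47.8 and 34.1 CPM under EtOH and at 23.0, 24.2 and 20.3 CPM under Tet, without overlap. Its log2 fold change was -0.82 (SE 0.18, adjusted p = 0.135 in edgeR). *KCNQ5*, which can pair with it, had 0.26 (SE 0.16) at a higher level. Of the summed TPM of *KCNQ3* and *KCNQ5*, *KCNQ3* accounted for 24.6% ± 2.69 under EtOH and 13.5% ± 0.772 under Tet (SD, n = 3 each), and *KCNQ5* for the rest.

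**Figure D4:**
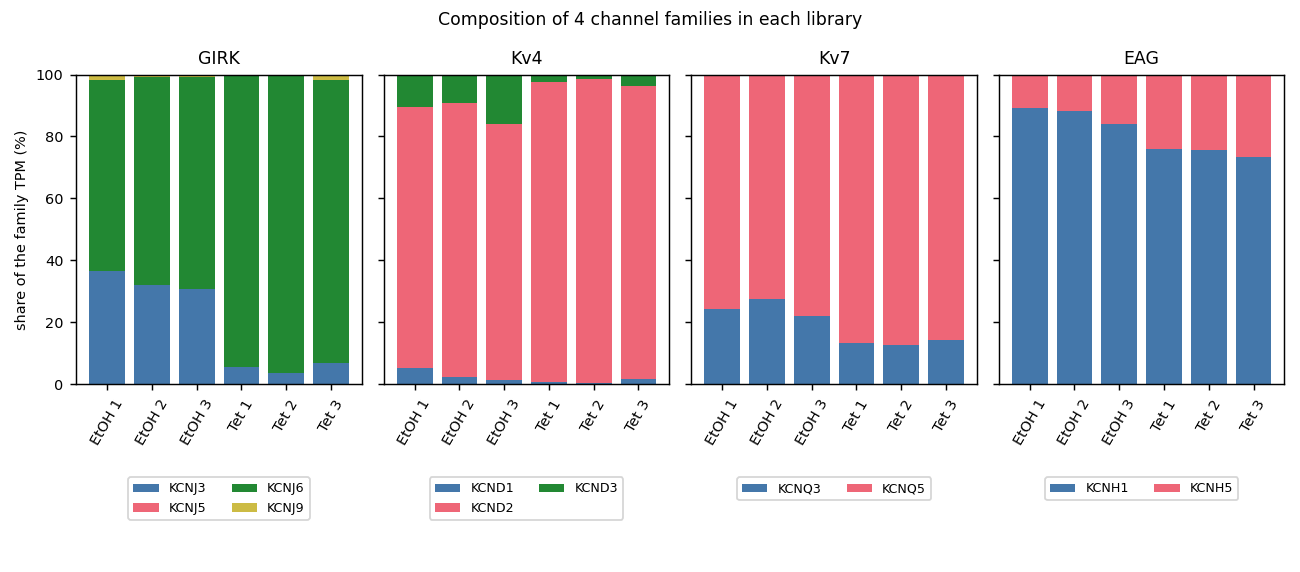
Share of each gene in the summed TPM of the genes drawn for its channel family, in percent, as stacked bars for each of the 6 libraries. The KCNJ3 part of the GIRK bars is 30.8% or more in the EtOH libraries and 6.75% or less in the Tet libraries, while KCND2, KCNQ5 and KCNH5 take larger parts of their bars under the Tet label. The families drawn were chosen after values were seen. In the Erg family, which is not drawn, KCNH7 held a mean of 99.1% under EtOH and 99.2% under Tet.

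*KCNV1*, a silent subunit that changes Kv2 channels, is also a member not picked by the rule on which members to discuss. *KCNV1* was at 1.84, 2.34 and 1.75 CPM under EtOH and at 0.674, 0.903 and 0.478 CPM under Tet. Its log2 fold change was -1.53 (SE 0.37, adjusted p = 0.168 in edgeR). The Kv2 pore gene *KCNB2* had 0.19 (SE 0.26) at 33.0 and 37.7 CPM. *KCNH8* had 0.42 (SE 0.28), with EtOH replicate 2 the lowest library. *KCNH2*, known as hERG, was low at about 1 CPM in both groups, with a log2 fold change of 0.10 (SE 0.49).

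The auxiliary genes held no member with an unadjusted p under 0.05. *KCNRG*, a soluble protein that interferes with the assembly of Kv channels, was the highest at 11.8 TPM, but 66.8% of its exon bases lie within *TRIM13*. Its log2 fold change was -0.03 (SE 0.21). The beta subunits *KCNAB1*, *KCNAB2* and *KCNAB3* had -0.25 (SE 0.23), 0.29 (SE 0.48) and -0.77 (SE 0.50), and their groups overlapped.

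Two-pore genes gave 2 of 6 tested members with an unadjusted p under 0.05 in edgeR, both lower (10.8% of all genes tested reached this p, 4.94% lower), and 0 that passed adjustment there, in DESeq2 or in limma-voom. *KCNK1*, which encodes TWIK1, stood at 7.48, 3.90 and 7.64 CPM under EtOH and at 2.69, 3.38 and 3.52 CPM under Tet. EtOH replicate 2 lay close to the libraries labeled Tet. The log2 fold change was -0.98 (SE 0.31, adjusted p = 0.288 in edgeR), and -1.23 with an adjusted p of 0.0280 without EtOH replicate 2. *KCNK6*, which encodes TWIK2, was at 0.949, 1.26 and 0.826 CPM against 0.213, 0.338 and 0.629 CPM. This gave a log2 fold change of -1.33 (SE 0.49, adjusted p = 0.375 in edgeR). *KCNK2*, the mechanically gated TREK1 and the highest of the class at 11.4 TPM, had -0.09 (SE 0.22). The acid-sensitive *KCNK3* had 1.21 (SE 0.69), with EtOH replicate 2 at 0.0721 CPM, under the level of 3 counts. *KCNK12* had -0.32 (SE 0.24). The summed TPM of the class ranged from 18.2 to 20.8 under EtOH and from 12.6 to 17.2 under Tet.

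Calcium-activated and Slo genes gave 3 of 8 tested members with an unadjusted p under 0.05 in edgeR, 2 higher and 1 lower, against 10.8% of all genes tested. *KCNMA1*, the pore of the large-conductance BK channel, stood at 8.29, 5.66 and 8.26 CPM under EtOH and at 14.7, 9.39 and 14.8 CPM under Tet. *KCNMB4*, the neuronal beta subunit of BK, was at 5.02, 5.16 and 4.93 CPM against 7.66, 7.11 and 6.69 CPM. Both were higher in all 3 libraries labeled Tet, with log2 fold changes of 0.81 (SE 0.26, adjusted p = 0.297 in edgeR) and 0.51 (SE 0.21, adjusted p = 0.426). The other beta subunit genes *KCNMB2* and *KCNMB3*, 392 kb apart on chromosome 3 and the only neighbors within 1 Mb that were both tested, had 0.14 and -0.04. Of the exon bases of *KCNMB3*, 47.5% lie within other genes, among them *PIK3CA*.

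No small-conductance (SK) gene passed adjustment in edgeR, DESeq2 or limma-voom. Of 3, 1 (*KCNN3*, lower) had an unadjusted p under 0.05 in edgeR, as did 10.8% of all genes tested (4.94% lower). *KCNN3* stood at 5.97, 3.79 and 5.22 CPM under EtOH and at 3.01, 2.45 and 3.40 CPM under Tet, a log2 fold change of -0.76 (SE 0.28, adjusted p = 0.371 in edgeR). *KCNN2* was at 7.47 ± 0.281 and 7.80 ± 1.54 CPM (SD, n = 3 each), with 0.06 (SE 0.22). *KCNN1* was below 0.5 CPM in every library but Tet replicate 3, at 1.21 CPM. *KCNJ11* shared this pattern, with 1.11 CPM in Tet replicate 3 and at most 0.284 CPM elsewhere. Within SK, *KCNN3* held 22.2% ± 4.21 of TPM under EtOH and 13.3% ± 3.14 under Tet.

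**Figure D5:**
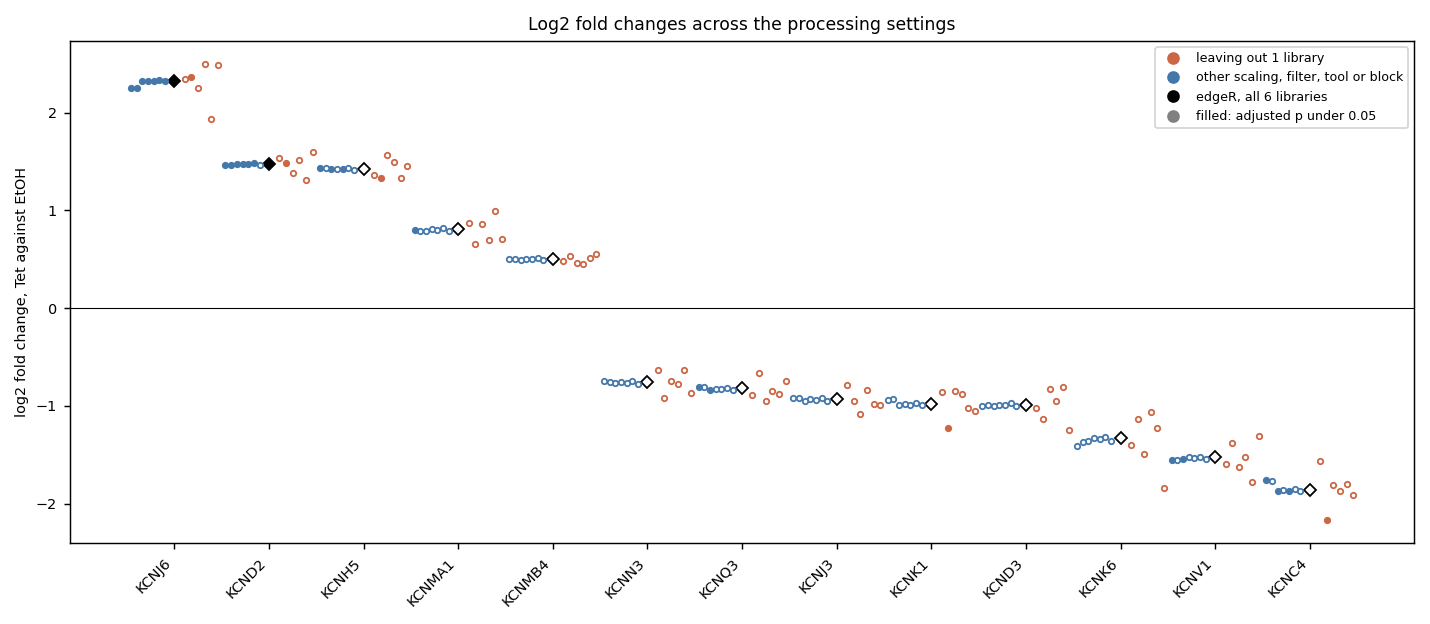
Log2 fold change, Tet against EtOH, of the 13 potassium channel genes with an unadjusted p under 0.05, for edgeR on all 6 libraries (diamonds), 7 other scalings, filters, tools or designs (blue) and 6 fits that leave out 1 library (orange), filled where the adjusted p is under 0.05. No gene crosses 0, which was nearly fixed in advance because their groups do not overlap. KCNJ6 and KCND2 are each filled in 1 of the 6 orange points.

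All 13 of these genes kept their sign in each of 13 alternative fits, as the plot of settings shows. This was nearly fixed in advance, because their groups do not overlap and every fit reuses the same libraries. The calls of these genes did not hold as well. Between 0 and 7 members were called, and leaving out any library but EtOH replicate 2 left 0, whereas leaving out that library gave 5. The share of all genes called, 0.236% in the main fit, also changed between these fits. The counts of members called were not set against it, so they give no result about the members.

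Proteins that act with the channels were examined in 3 lists of 77 genes in all. In edgeR 0 of their 53 tested genes passed an adjusted p of 0.05, against 0.236% of all genes tested. In limma-voom 1 passed. DESeq2 fitted more of them, 19, 30 and 17 genes by list, and 3 passed. The counts in DESeq2 and limma-voom were not set against their shares of all genes. Of 18 tested auxiliary partners, 6 had an unadjusted p under 0.05 and all 6 were higher under the Tet label (against 5.83% of all genes tested), with a list median log2 fold change of 0.14. *ANK3*, which encodes ankyrin-G and anchors Kv7 channels at the axon initial segment, stood at 92.9, 49.1 and 81.4 CPM under EtOH and at 185, 167 and 190 CPM under Tet. The groups lay far apart, with a log2 fold change of 1.28 (SE 0.23, adjusted p = 0.0812 in edgeR, and 0.00922 without EtOH replicate 2). *ABCC8*, the sulfonylurea receptor of ATP-sensitive channels, had 1.17 (SE 0.31, adjusted p = 0.205).

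The G protein inputs of the inward rectifiers, which are G protein subunits, their regulators and inhibitory receptors, gave 2 higher and 1 lower of 20 tested at an unadjusted p under 0.05, against 5.83% and 4.94% of all genes tested, with a median of 0.14. This share is near that of all genes. *GNAO1*, the alpha subunit abundant in neurons, stood at 18.6, 14.3 and 19.6 CPM under EtOH and at 23.3, 25.6 and 32.3 CPM under Tet, a log2 fold change of 0.63 (SE 0.20, adjusted p = 0.297 in edgeR). *GNB1*, a beta subunit of the kind that opens GIRK channels, had 0.49 (SE 0.17, adjusted p = 0.340 in edgeR, and 0.0327 without EtOH replicate 2). Neither pair of groups overlapped.

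Other genes of potassium transport gave 4 higher and 1 lower of 15 tested at an unadjusted p under 0.05, against 5.83% and 4.94% of all genes tested, with a median of 0.28. *ATP1B1*, a beta subunit of the sodium-potassium pump, stood at 152, 152 and 139 CPM under EtOH and at 219, 255 and 188 CPM under Tet. The groups did not overlap, with a log2 fold change of 0.58 (SE 0.16, adjusted p = 0.210 in edgeR). Over all genes tested the median was -0.006.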

How the data were processed

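Total RNA depleted of ribosomal RNA was sequenced as paired ends from a stranded kit. Each deposited table held estimated counts, 1 value a gene (GRCh38, GENCODE v30, STAR 2.7.1a). Per the file headers, featureCounts 1.6.4 divided unique read pairs among overlapping genes without using the strand, so a gene and its antisense partner cannot be told apart. The study's methods and the submitters' processing notes name version 1.5.1 and other options, strand among them. Between 12.3% and 14.7% of values per library were not whole. The design had foreseen whole counts, so values were rounded. The fit was tested on simulated data. The 92 spike-in sequences had no counts and were left out. Names were found for 60437 identifiers (99.6%).

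Depth was between 27933378 and 40498065 counts a library, and limits from counts cover counting error only. Genes kept by filterByExpr were scaled by TMM and compared in edgeR 4.0.16 (R 4.3.3, quasi-likelihood F test), with no replicate block. P-values were adjusted by the Benjamini-Hochberg method over 22443 genes. SE is the size of the log2 fold change divided by the square root of F. TPM used exon bases. Promoter windows came from RefSeq (GRCh38.p14). Replicates differed by more than sampling noise (chi-square per degree of freedom 11.4 to 147).

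Named were members past the threshold, the 4 members per class with the lowest p and the 3 with the highest TPM, 2 genes per partner list with the lowest p, and *MYCN*. Other names, and the families whose shares are given, were chosen after values were seen. Members and lists were chosen with earlier results of these data known. Alternatives were RLE and upper quartile scaling, no filter, a minimum of 10 counts in 3 libraries, DESeq2 1.42.0, limma-voom (limma 3.58.1), a replicate block, and leaving out each library. Some genes of the family and of the lists are not reported here.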

Additional observations from a re-analysis of the deposited data

How the results depend on the processing

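Of the potassium channel genes, 2 were called higher and 0 lower, against 0.147% and 0.0891% of all genes tested. The share of all genes called changed between the fits. The counts that follow were not set against it and describe the fits only. The number higher was 1 with RLE size factors and 4 with the replicate block, and the number lower was 1 without the filter, 3 with DESeq2 and 3 with the replicate block. Leaving out 1 library gave between 0 and 3 higher and between 0 and 2 lower, and 0 in both directions without any library but EtOH replicate 2. Auxiliary partners called higher numbered 0, against 1 without the filter, 2 with DESeq2, 2 with the replicate block and 0 to 1 without 1 library (here and in the other lists, 1 without EtOH replicate 2), and 1 was lower with the block. G protein inputs had 0 called higher, 1 with the block and 0 to 1 without 1 library. Other potassium handling genes had 0 called higher, against 1 without the filter, 1 with DESeq2, 1 with limma-voom, 2 with the block and 0 to 1 without 1 library. Median log2 fold changes without 1 library ran from -0.19 to 0.081 for the auxiliary genes, from -0.27 to -0.014 for the inward rectifiers, from 0.15 to 0.30 for the G protein inputs and from 0.28 to 0.58 for other potassium handling.

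Replicate numbers are shared between the labels, and the deviations of same-numbered libraries correlated at 0.0603, 0.510 and 0.219. These values do not decide whether the libraries were paired. The main fit did not treat them as pairs, and the replicate block is given as an alternative. Under the replicate block 7 members were called (*KCNJ6*, *KCND2*, *KCNH5*, *KCNMA1*, *KCNC4*, *KCNQ3* and *KCNV1*), with DESeq2 6 (the same without *KCNMA1*) and without the filter 4 (*KCNJ6*, *KCND2*, *KCNH5* and *KCNC4*). With the block *KCNV1* passed at an unadjusted p of 0.00146 in edgeR, and *KCNQ3* passed at 0.000678 in DESeq2. In the main edgeR fit *KCNH5* did not pass at 0.00044, so a larger share of all genes passed in those fits. The counts of members and list genes called were not set against that share. Over 494 recomputed log2 fold changes of single genes named by the rule, 445 kept direction and call, 24 gained and 11 lost the call, and 14 changed sign, each on leaving out 1 library. Without 1 library, log2 fold changes ran from -0.16 to 0.62 for *KCNAB2*, -0.27 to 0.25 for *KCNIP4*, -0.11 to 0.063 for *KCNRG*, -0.23 to 0.088 for *KCNK2*, -0.12 to 0.047 for *KCNMB3*, -0.11 to 0.18 for *KCNN2*, -0.13 to 0.24 for *KCNT2* and -0.22 to 0.21 for *MYCN*. The causes were not tested. At this depth 43 members were too low to be tested, and low depth and lack of expression cannot be told apart for them.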
